A study of Mus musculus with 2 samples.

Results

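Cirbp and Rbm3 encode the best known cold-inducible RNA-binding proteins of mammals. They are followed here in single-cell RNA libraries of microglia sorted from mouse brain. They were taken by symbol from the deposited gene lists, 2 genes of 55450, because an earlier look at these libraries had shown Cirbp higher and Rbm3 lower in microglia after anesthesia. That contrast chose them, so its values are given as a description. The awake library came from adult male C57BL/6J mice given normal saline (3 mice), and the anesthesia library from adult male mice of the same strain given 100 mg/kg sodium pentobarbital, a barbiturate (3 mice). Neither group carried a transgene or deletion per the labels. Microglia were sorted as CD11b+ cells with low CD45 and captured with the 10x Chromium 3' kit, which counts RNA molecules by unique molecular identifiers (UMIs). The sources used here do not give the pooling of mice, the duration of anesthesia, body temperature or time of day. With 1 library for each group, differences are without a check by replicates. Intervals describe the error of counting UMIs and nothing else.

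CIRBP and RBM3 share a plan of an RNA recognition motif at the amino end and a glycine-rich tail. In many cell types mild cooling raises both, and their RNAs follow the daily rhythm of body temperature, partly through temperature-dependent splicing into forms that are degraded. CIRBP is known to influence the amplitude of the circadian clock through polyadenylation of clock transcripts, and CIRBP released from cells acts on myeloid cells through TLR4 and MD2. RBM3 is known in the brain for its link to synapse maintenance.

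Cirbp (ENSMUSG00000045193) lies on chromosome 10, 80165985 to 80172786, plus strand, in GRCm38. GENCODE M21 lists 7 transcripts for it, 2 protein coding, 1 subject to nonsense-mediated decay and 4 with a retained intron. No exon of another gene overlaps its exons. Rbm3 (ENSMUSG00000031167) lies on chromosome X, 8138975 to 8145880, minus strand, with 11 transcripts, 2 of them subject to nonsense-mediated decay. Exons of the antisense gene Rbm3os overlap those of Rbm3 on the other strand, and a processed pseudogene, Rbm3-ps, lies on chromosome 1. Both were close to 0 in microglia-like cells. Rbm3os had 26 UMIs awake and 37 under anesthesia, and Rbm3-ps had 7 and 14. The counts are per gene and do not separate transcript forms of either gene.

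The RefSeq promoter table (GRCm38.p6) held Cirbp, with 2 start sites. Upstream sequence of the first is shown because the octamer TCCCCGCC, described for the Cirbp promoter as a mild cold response element, occurs in it. The stretch is chr10:80167589-80167777, plus strand, 189 bases that end where a GENCODE M21 exon of Cirbp begins. It lies inside the annotated gene, since a first exon of another Cirbp transcript is farther upstream. Capitals mark the octamer, which starts at base 4.
Cirbp: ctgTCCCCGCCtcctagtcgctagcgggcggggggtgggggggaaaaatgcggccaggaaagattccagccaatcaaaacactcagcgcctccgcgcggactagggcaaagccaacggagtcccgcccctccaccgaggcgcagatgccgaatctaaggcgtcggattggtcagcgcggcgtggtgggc
Among the 250 bases before each of 32851 promoter starts in the table, 4.64% held TCCCCGCC on either strand. The same window at this Cirbp start held 1 match of it, 3 of the GC box GGGCGG (in 32.7% of promoters), 2 of CCAAT (33.8%) and 0 of the E-box CACGTG (6.02%). No other match overlapped the octamer. The window at the second Cirbp start held 4 GC boxes and none of the other motifs. A match is a description of these letters only.

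The libraries held 53262885 UMIs in 8600 awake and 61139016 UMIs in 9412 anesthesia barcodes. Microglia-like cells were 7475 of 8223 awake and 8438 of 8944 anesthesia cells that passed the cell filter. All 10 microglial markers were detected in them, with a summed level of 23310 CPM awake and 21029 CPM anesthesia (CPM, UMIs of a gene per 1000000 UMIs of the class). Summed endothelial markers in microglia-like cells were at 504 and 345 CPM and macrophage markers at 147 and 144 CPM. Their median depth was 5951 and 5432 UMIs, and their median mitochondrial share was 1.33% and 2.14%. The awake microglia-like cells lay mainly in clusters 0 and 3 and the anesthesia cells in clusters 1 and 2, so a cluster here may be a library and not a cell state. The libraries shared 14 barcodes. Without the cells that carry them (13 awake and 12 anesthesia microglia-like cells) the log2 ratios of Cirbp and Rbm3 in microglia-like cells, anesthesia over awake, were 1.58 and -0.34, as with them.

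In microglia-like cells Cirbp was 2.99-fold higher in the anesthesia library. It had 3282 UMIs in the awake library, 68.6 CPM (95% Poisson interval 66.2 to 70.9), and 11613 UMIs in the anesthesia library, 205 CPM (202 to 209). The log2 ratio of anesthesia over awake was 1.58 (95% interval 1.53 to 1.64). The intervals of the 2 libraries were far apart. A gene is called measured here with 200 or more UMIs in the libraries combined. Of 11392 such genes, 93 had a higher log2 ratio. Among the 3176 of them with a mean of at least 50 CPM, 5 had a higher one.

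Rbm3 differed less and in the other direction. It had 19516 UMIs in the awake library, 408 CPM (402 to 413), and 18171 in the anesthesia library, 321 CPM (317 to 326). Its log2 ratio was -0.34 (-0.37 to -0.31), and its level in the awake library was 1.27-fold that in the anesthesia library. A lower ratio was found for 2801 of the measured genes, which places Rbm3 at percentile 24.6. All measured genes had a median of -0.02, and 5% of them lay below -0.83 and 5% above 0.94. At least 1.5-fold higher were 13.3% of measured genes and at least 1.5-fold lower 11.9%. Cirbp was past that fold and Rbm3 was not, and since this contrast chose them nothing is read from their count.

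**Figure D1:**
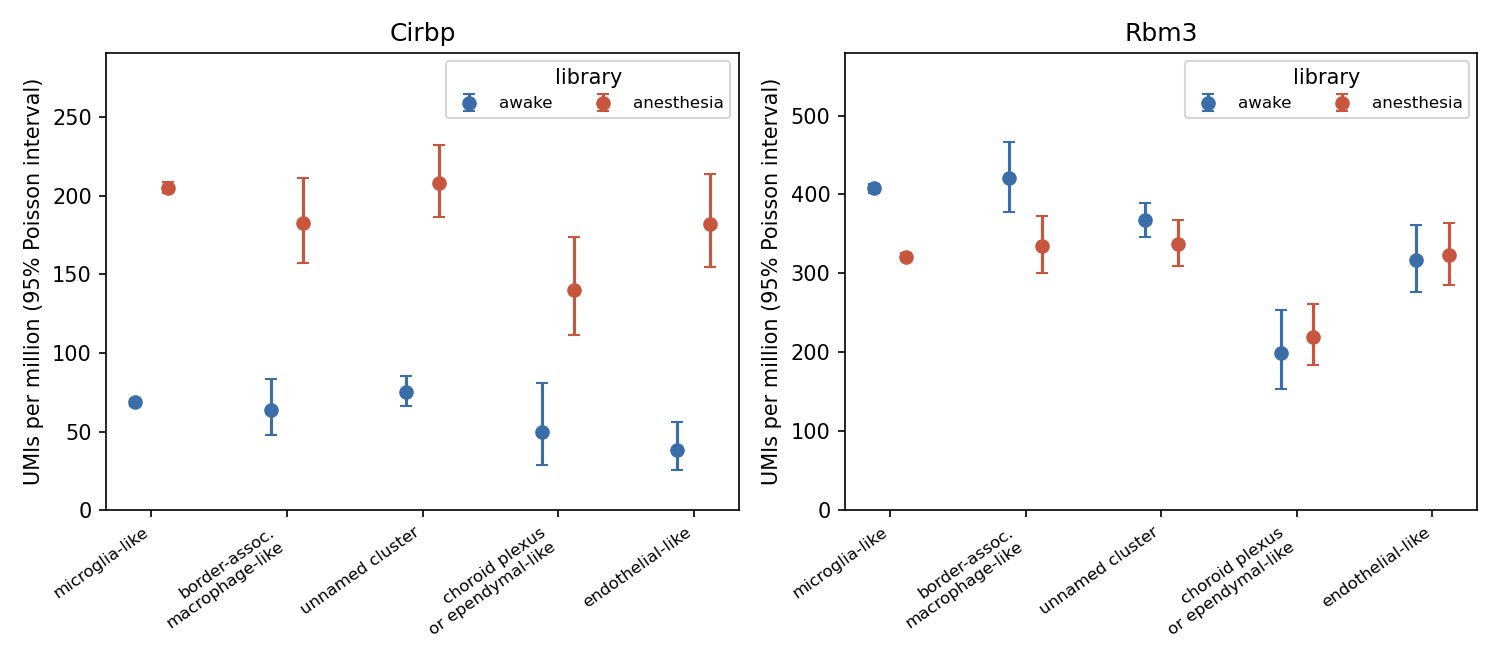
Levels of Cirbp (left) and Rbm3 (right) in CPM summed over the cells of each class, with 95% Poisson intervals, in the awake (blue) and anesthesia (red) library. Cirbp is higher in the anesthesia library in each class shown, such as 68.6 against 205 in microglia-like cells, while the Rbm3 intervals overlap in the unnamed cluster and in endothelial-like and choroid plexus or ependymal-like cells.

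Endothelial-like cells line the brain's vessels and entered the sort in small numbers, 113 awake and 123 anesthesia cells. Cirbp had 27 UMIs awake, 38.5 CPM (25.4 to 56.1), and 152 UMIs under anesthesia, 182 CPM (155 to 214). Its log2 ratio was 2.24 (1.64 to 2.89). Rbm3 had 222 UMIs, 317 CPM (277 to 362), and 269 UMIs, 323 CPM (285 to 364), a log2 ratio of 0.03 (-0.24 to 0.29). The Cirbp intervals did not overlap, and the Rbm3 intervals did. Of the 1299 genes measured in this class, 19.7% were past 1.5-fold in the higher direction and 15.9% in the lower.

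The Rbm3 ratio of endothelial-like cells exceeded that of microglia-like cells by 0.37 (0.11 to 0.63) on the log2 scale, and the Cirbp ratio by 0.66 (0.07 to 1.25). All 10 endothelial markers were seen in these cells, with a summed level of 36833 CPM awake and 20433 CPM anesthesia. They also held microglial RNA, and more of it in the anesthesia library. The microglial genes P2ry12, Tmem119, Sall1, Siglech and Fcrls stood at a median of 17.1% of their microglial level in the awake and 43.3% in the anesthesia endothelial-like cells. With that share of microglial RNA subtracted and the remainder rescaled, Cirbp was at 32.3 and 165 CPM, and Rbm3 at 298 and 324. Without cells over 10000 UMIs, where that share was 9.07% and 22.4%, the Cirbp ratio was 1.90 (1.22 to 2.63) and the Rbm3 ratio 0.09 (-0.24 to 0.43).

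Border-associated macrophages are the resident macrophages of the meninges and perivascular spaces. The 84 awake and 56 anesthesia cells of that class had values close to those of microglia-like cells. Cirbp had 54 UMIs awake, 63.8 CPM (48.0 to 83.3), and 185 UMIs under anesthesia, 183 CPM (157 to 211). Its log2 ratio was 1.52 (1.07 to 1.98). Rbm3 had 356 UMIs, 421 CPM (378 to 467), and 339 UMIs, 335 CPM (300 to 373), a ratio of -0.33 (-0.55 to -0.11). The intervals of the libraries did not overlap for either gene, in a class where 28.9% of 1454 measured genes were past 1.5-fold in the higher direction and 9.83% in the lower.

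The macrophage markers summed to 2577 CPM awake and 1362 CPM anesthesia in this class, and microglial markers to 11762 and 18054 CPM. The same 5 genes stood at 48.3% of their microglial level in awake and 83.4% in anesthesia macrophage-like cells, whose median depths were 8354 and 13146 UMIs. With that share subtracted and the remainder rescaled, Cirbp was at 59.4 awake and 70.1 anesthesia CPM, a log2 ratio of 0.24, and Rbm3 at 433 and 405. Over the 5 genes the share ran from 40.5% to 58.9% awake and from 80.0% to 93.6% anesthesia. The anesthesia values thus rest on a small remainder that depends strongly on the share taken, and they have no interval. Without cells over 10000 UMIs, 50 awake and 20 anesthesia cells remained, and the Cirbp ratio was 0.81 (-0.11 to 1.71) and the Rbm3 ratio -0.46 (-0.99 to 0.04). A Cirbp difference of the macrophages themselves and one carried by microglial RNA in these barcodes cannot be told apart.

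Choroid plexus or ependymal-like cells, 41 awake and 83 anesthesia, had the lowest Rbm3 levels of the classes. Rbm3 was at 199 CPM (153 to 254) awake and 220 (183 to 261) anesthesia, from 64 and 130 UMIs. Cirbp was at 49.7 (28.4 to 80.8) and 140 (112 to 174), 2.82-fold higher in the anesthesia library (log2 interval 0.71 to 2.37). In the awake library the order of Cirbp levels was the unnamed cluster, microglia-like, macrophage-like, choroid plexus or ependymal-like and endothelial-like cells, and each class overlapped its neighbours in that order. For Rbm3 the order in the awake library was macrophage-like, microglia-like, the unnamed cluster, endothelial-like and choroid plexus or ependymal-like cells. There the microglia-like and unnamed levels did not overlap, nor did the endothelial-like and choroid plexus levels. In the anesthesia library the choroid plexus or ependymal-like cells had the lowest level of each gene. The other classes lay between 182 and 208 CPM for Cirbp and between 321 and 337 CPM for Rbm3.

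The direction for Cirbp was the same in every cluster. In all 10 clusters the interval of its log2 ratio lay above 0, with values from 1.47 in the unnamed cluster 4 to 2.24 in the endothelial-like cluster 6. Over the 6 microglia-like clusters the ratio lay between 1.51 and 1.83. Awake levels in those clusters were 54.4 to 74.7 CPM and anesthesia levels 164 to 230 CPM, so the ranges did not overlap. The few cells of a library that fell into clusters made up mostly of the other library had Cirbp levels close to those of their own library. The 230 anesthesia cells in cluster 0, where 4389 cells were awake, had Cirbp at 230 CPM (201 to 262), and the 95 awake cells in cluster 1, beside 4017 anesthesia cells, had 61.2 CPM (43.5 to 83.7).

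For Rbm3 the interval lay below 0 in 6 of the 10 clusters and included 0 in 4. Among the 6 microglia-like clusters it lay below 0 in 5, with ratios down to -0.40 in cluster 0. The exception was cluster 5, led by Clec7a, Lpl and Apoe, genes of disease-associated microglia. There Rbm3 had 419 awake (393 to 446) and 412 anesthesia (365 to 463) CPM, a ratio of -0.02 (-0.22 to 0.17), while Cirbp had 57.7 and 164, a ratio of 1.51 (1.13 to 1.88). In cluster 7, led by interferon-induced genes such as Ifit3, Cirbp was at 54.4 and 194 and Rbm3 at 406 and 310 CPM.

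**Figure D2:**
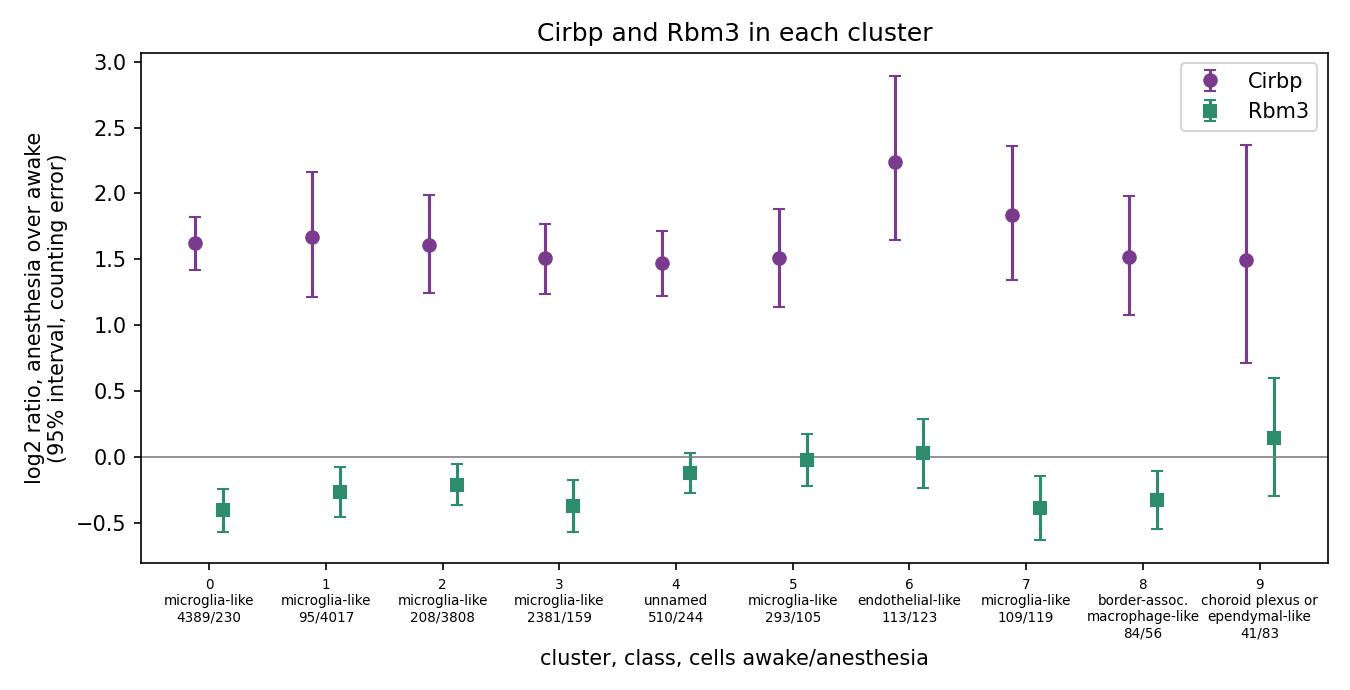
Log2 ratio of anesthesia over awake for Cirbp (purple circles) and Rbm3 (green squares) in each of the 10 clusters, with 95% intervals for counting error; cell numbers of the libraries stand under each cluster. All Cirbp intervals lie above 0, and the Rbm3 intervals lie below 0 or include it.

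Within a library the large clusters differed for both genes. In the anesthesia library cluster 1, led by Nr4a3, Klf10 and Il1b, had Cirbp at 194 CPM (190 to 199) and Rbm3 at 300 (294 to 305). Cluster 2 of the same library had 227 (220 to 234) and 359 (350 to 367). Its 10 leading genes include Cirbp itself and the small nucleolar RNA host genes Snhg8 and Snhg12. Leading genes were ranked against the other clusters of both libraries, and this cluster held 208 awake and 3808 anesthesia cells. Its lead in Cirbp therefore includes the gap between libraries. In the awake library cluster 3, led by Sbno2, had 61.4 and 372 CPM, and cluster 0, led by Klf2, had 74.7 and 432 CPM. These gaps between clusters of a library were small beside the gap between libraries for Cirbp, and of similar size to it for Rbm3. Neither gene was used to cluster the cells, but clusters of the same cells are a description only.

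Cells were also split by Tnf, the inflammatory cytokine gene, which was left out of the clustering. At a common depth of 2000 UMIs drawn from each cell, 42.4% of the awake microglia-like cells carried Tnf and 65.9% of the anesthesia ones. Among cells with Tnf, Cirbp was at 64.2 (58.1 to 70.9) awake and 205 (196 to 213) anesthesia CPM, and among cells without it at 74.9 (69.2 to 81.0) and 220 (208 to 233). The log2 ratios were 1.67 (1.52 to 1.83) and 1.55 (1.41 to 1.69). For Rbm3 the levels were 398 and 322 with Tnf and 430 and 363 without, with ratios of -0.30 (-0.38 to -0.23) and -0.24 (-0.32 to -0.17). For both genes the intervals of the ratios with and without Tnf overlapped.

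Depth and mitochondrial share differed between the libraries, so the ratios were also taken among cells of like depth and like mitochondrial share. Over 5 ranges of UMIs per cell the Cirbp ratio lay between 1.41 and 1.81, and every interval lay above 0. Over 5 ranges of mitochondrial share it lay between 1.38, in cells with 5 to 10% mitochondrial UMIs, and 1.75, in cells with 3 to 5%. Rbm3 was lower in the anesthesia library in 4 of the 5 depth ranges, with ratios from -0.42 to -0.24. In cells of 1000 to 3000 UMIs, the shallowest, it was at 271 awake and 276 anesthesia CPM, a ratio of 0.03 (-0.24 to 0.29). Over the ranges of mitochondrial share the Rbm3 ratio lay between -0.38 and -0.17, nearest 0 at 1 to 2%. In both libraries Rbm3 was higher where the mitochondrial share was low, at 476 awake and 365 anesthesia CPM in cells under 1%, against 321 and 277 in cells of 5 to 10%.

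**Figure D3:**
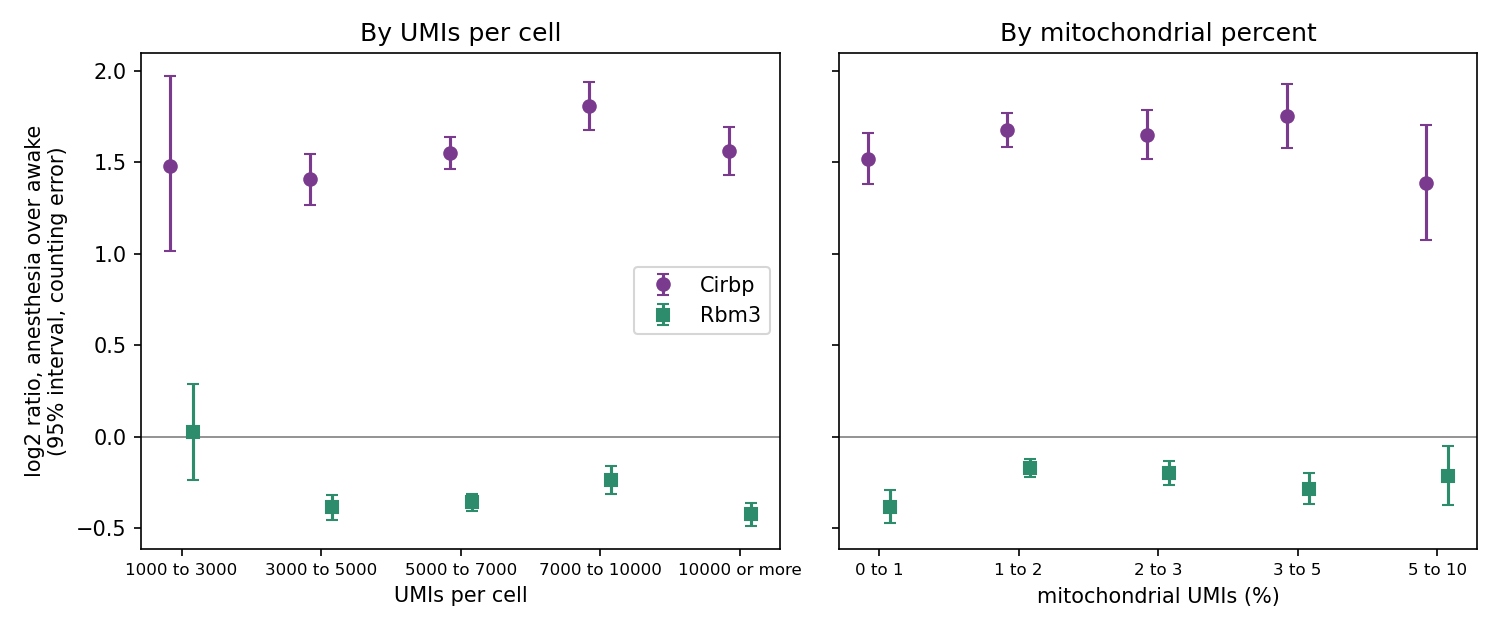
Log2 ratio of anesthesia over awake for Cirbp (purple circles) and Rbm3 (green squares) in microglia-like cells grouped by UMIs per cell (left) and by percent of mitochondrial UMIs (right), with 95% intervals for counting error. Cirbp lies between 1.38 and 1.81 in every group, and Rbm3 lies below 0 in each group but the cells of 1000 to 3000 UMIs.

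Per cell, Cirbp was found in more anesthesia cells and at higher counts. With 2000 UMIs drawn from each cell (187 awake and 305 anesthesia cells were shallower and not used), 950 of 7288 awake cells had a Cirbp UMI, 13.04% (exact binomial interval 12.3 to 13.8). In the anesthesia library 2725 of 8133 cells had one, 33.5% (32.5 to 34.5). Unthinned, the shares were 33.9% and 66.3%. Cells with 2 Cirbp UMIs were 1.02% of awake and 6.10% of anesthesia cells, and the highest count in a cell was 3 and 6. Rbm3 was seen in 54.4% of awake cells (53.3 to 55.6) and, under anesthesia, in 47.8% (46.7 to 48.8), or 86.0% and 80.1% unthinned. In endothelial-like cells Cirbp was seen in 7 of 106 awake cells, 6.60% (2.70 to 13.1), and 37 of 112 anesthesia cells, 33.0% (24.4 to 42.6). In macrophage-like cells it was seen in 11 of 80 and 18 of 56. No class in these libraries is known to lack either gene, so a background share from free RNA could not be read from one.

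The Cirbp counts were spread over cells almost as random sampling at a common level would spread them. For a Poisson distribution of the same mean, 13.1% of awake and 34.3% of anesthesia cells would carry Cirbp, close to the 13.04% and 33.5% measured. The variance of the thinned Cirbp counts divided by their mean (the Fano factor, 1 for Poisson counts) was 1.01 awake and 1.05 anesthesia. For Rbm3, whose mean was higher, it was 1.13 and 1.08, with a Poisson share of 56.5% awake against the 54.4% measured. Over all genes with a mean of at least 0.1 UMI per thinned cell in both libraries, the median Fano factor was 1.04 and 1.05. Cirbp stood at percentile 20.3 and 48.8 of those genes, and Rbm3 at 83.6 and 69.2. The Fano factor grows with the mean. The variance in excess of Poisson divided by the squared mean does not. It was 0.067 awake and 0.121 anesthesia for Cirbp, and 0.154 and 0.118 for Rbm3. No error was computed for these values, so the genes and libraries are not ranked by them. A subset of cells with much Cirbp was not visible at this depth in either library.

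**Figure D4:**
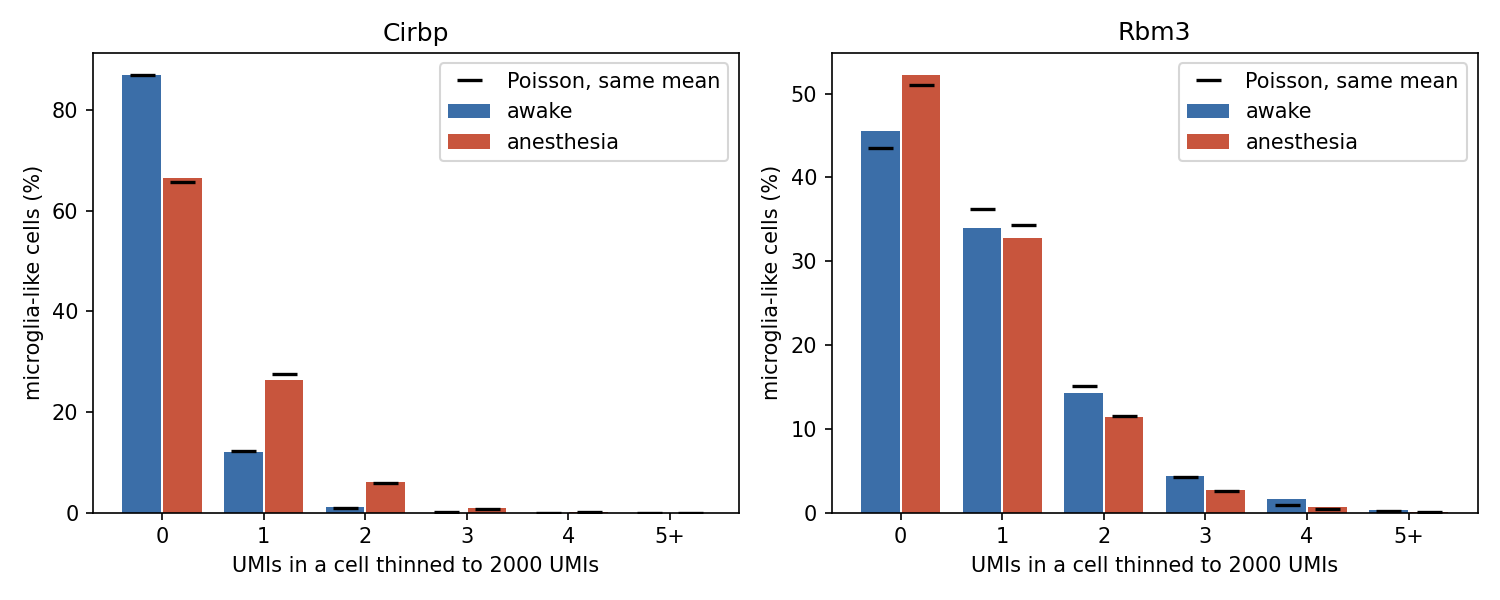
Percent of microglia-like cells with 0 to 5 or more UMIs of Cirbp (left) and Rbm3 (right) after thinning each cell to 2000 UMIs, awake in blue and anesthesia in red; black dashes give a Poisson distribution of the same mean. The Cirbp bars follow the dashes closely and the awake Rbm3 bars less so, with Cirbp seen in 13.04% of awake cells and 33.5% under anesthesia.

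The thinned counts of the 2 genes were almost uncorrelated from cell to cell. Pearson's r of their log-transformed thinned counts was 0.021 over 7288 awake and 0.0044 over 8133 anesthesia microglia-like cells. These cells share their library and were thinned to the same depth. Both genes were found together in 7.41% of awake cells, against 7.10% if they were independent, and in 16.1% of anesthesia cells. Rbm3 was seen in 56.8% of awake cells with Cirbp and 54.1% of those without, and in 48.0% and 47.7% of anesthesia cells. In endothelial-like cells r was -0.038 over 106 awake and 0.12 over 112 anesthesia cells. In macrophage-like cells it was 0.0067 over 80 awake and 0.16 over 56 anesthesia cells. All are weak values in sparse counts. In microglia-like cells the Cirbp counts varied little beyond sampling at this depth (Fano factor 1.01 awake and 1.05 anesthesia). That keeps r small even for genes with tied levels, so whether the 2 genes follow each other cannot be decided here.

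In the thinned counts no gene had a high r with Cirbp or Rbm3 in both libraries. Sampling of such sparse counts limits r, so closely linked genes could be missed. Among 2844 genes the closest to Cirbp in both libraries were Eif1, a translation initiation factor, Ftl1, the ferritin light chain, Eif4a2, an RNA helicase of translation initiation, Rpl22l1, a ribosomal protein paralog, and Cd37, a tetraspanin. They were ranked by the lower r of the 2 libraries, which was 0.029 for Eif1 and 0.024 for Cd37. The closest to Rbm3 were Atp6v0c, a subunit of the vacuolar proton pump, at 0.057, then Eif1 at 0.051, Ftl1 at 0.045, the actin-severing factor Cfl1 at 0.045 and the AP-1 factor Jund at 0.039. Rbm3 ranked 487th among the genes compared with Cirbp. The 99th percentile of the lower r was 0.018 for Cirbp and 0.026 for Rbm3.

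Other genes linked to cold and to temperature-dependent splicing were counted in microglia-like cells against all measured genes, of which 13.3% were past 1.5-fold higher and 11.9% lower. Of the 4 cold-shock domain genes 0 were past that fold in either direction, with a median log2 ratio of -0.04, a list too short for that count to be read against those shares. Carhsp1 was at -0.40 and Ybx3 at -0.14. Of 18 splicing regulators none was past that fold, with a median of -0.0060. The kinases Clk1 and Clk4, which phosphorylate SR proteins in a temperature-dependent way, were at 0.27 (0.25 to 0.29) and 0.50 (0.44 to 0.55). Srpk1 was at -0.52, Srpk2 at 0.47 and Hnrnph1, which acts on Rbm3 splicing, at 0.18.

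Relatives with RNA recognition motifs had a median of 0.13 over 29 measured genes. Of these, 3 were at least 1.5-fold higher and 1 lower, neither share above the 13.3% and 11.9% of all measured genes. Rbm38, an mRNA stability factor, was at 0.72 (0.66 to 0.79), Rbm26 at 0.65 and Rbm22, a spliceosome component named after its value was seen, at 0.61. Tia1, a stress granule protein, was the lower gene, at -0.72 (-0.82 to -0.62). Cirbp's ratio of 1.58 was above that of each of these relatives.

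The genes that modify, import or sense CIRBP had 1 of 9 measured members past 1.5-fold, a lower one, and a median of -0.24. That count is near the 11.9% of all measured genes. The import receptor Tnpo1 was at 0.50 (0.43 to 0.57) and the arginine methyltransferase Prmt1 at -0.27. Of the receptor genes for extracellular CIRBP, Ly96 and Tlr4 had the lowest ratios, Il6ra was at -0.26 and Trem1 had too few UMIs to be measured. Ly96, which encodes MD2, was at -0.64 (-0.74 to -0.54), from 38.4 to 24.7 CPM, and Tlr4 at -0.54 (-0.68 to -0.41), from 21.6 to 14.8. Of 3 measured RBM3 partners, Plcg1 was at 0.71 (0.60 to 0.82), Rtn3, a reticulon downstream of RBM3 at synapses, at 0.24 and Creb1 at -0.01.

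Heat shock genes, the counterpart of the cold-inducible genes in temperature responses, had a median of -0.12 over 24 measured members. Of these 7 were at least 1.5-fold lower and 2 higher, 7 of 24 against 11.9% of all measured genes. Hspa8, the constitutive Hsp70 chaperone, was at -0.92 (-0.93 to -0.90), Chordc1 at -1.04 and Hsph1 at -0.62. Hspa1b, the inducible Hsp70, was at 1.41 (1.33 to 1.49), from 33.4 to 88.9 CPM. Hspa1b is near-identical to Hspa1a, which was at 0.27, and the split of reads between them is uncertain. The other gene past 1.5-fold in the higher direction was Hsf2, at 0.68, named after its value was seen.

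Circadian clock genes had a median of 0.71 over 20 measured members, with 11 at least 1.5-fold higher, against 13.3% of all measured genes, and 0 lower. With genes of at least 1 UMI in each library counted, 13 of 24 were higher and 2 lower. The share of all genes past 1.5-fold under that looser filter is not given. These counts are therefore not to be set against the 13.3%, which is for genes with 200 or more UMIs. Per2, at 2.79 (2.47 to 3.14) from 85 and 697 UMIs, and Cry1, at 1.46 (1.30 to 1.63), are repressors of the clock loop, and Nr1d1, which represses Arntl, was at 1.35 (1.13 to 1.58). Clock genes were already part of the earlier results known when the lists were chosen.

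**Figure D5:**
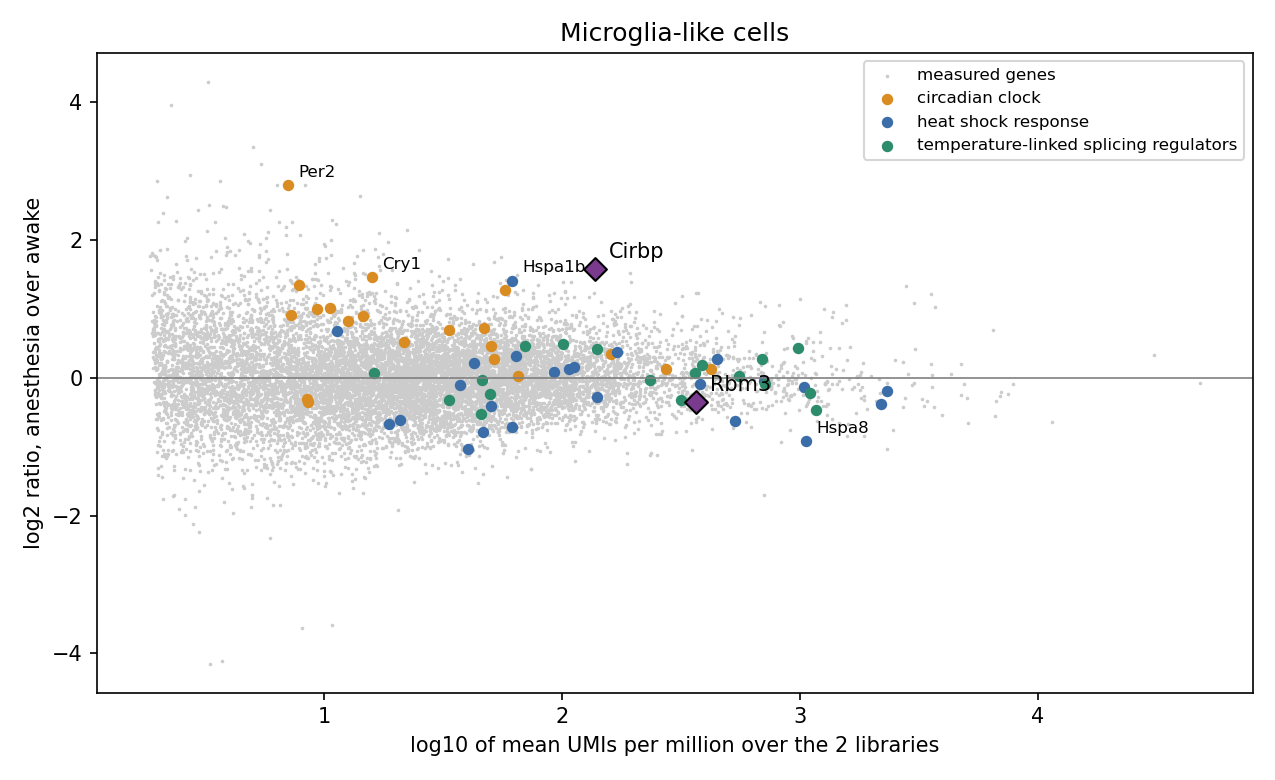
Log2 ratio of anesthesia over awake against the log10 of the mean level in CPM for each measured gene of microglia-like cells (grey), with the clock (orange), heat shock (blue) and splicing (green) lists and Cirbp and Rbm3 (purple diamonds). Cirbp stands at 1.58, near the top of genes of its level, and Rbm3 at -0.34, within the bulk.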

How the data were processed

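The deposited matrices hold UMI counts per gene and barcode, raw and whole. Per the submitters' processing notes, bcl2fastq and Cell Ranger 3.1.0 were used with GRCm38, while the file headers name version 4.0.0. Cells were kept with at least 500 genes, 1000 UMIs and at most 10% mitochondrial UMIs. Clusters came from cells of the pooled libraries (scanpy 1.11.5, leidenalg 0.10.2, 2000 variable genes, 30 components, 15 neighbours, resolution 0.6), leaving out Cirbp, Rbm3, the gene lists, and mitochondrial, ribosomal, hemoglobin, immediate early and cytokine genes. Clusters were named from 10 markers for each of 15 classes, with at least 3 among the 10 leading genes, or, for microglia, 7 detected in 25% of cells. Scrublet called 0 awake cells and 1 anesthesia cell doublets and did not work, so doublets were kept.

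Counts were summed per class and library and scaled to CPM. Intervals (95%) are exact Poisson, Clopper-Pearson or conditional binomial, and normal for differences of log2 ratios between classes. There is no test, since each group has 1 library. Scripts were tested on simulated data. The members and lists were chosen with earlier results of these data known. Named genes were Cirbp, Rbm3, the 5 closest genes to each, for every list up to 3 members with the largest absolute log2 ratio, and Per2, Clk1, Clk4, Hnrnph1, Hspa1b, Hsph1, Tlr4, Ly96, Tnpo1, Prmt1 and Rtn3. The value of 1 gene that this rule names is not reported here. Promoters are RefSeq's.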

Additional observations from a re-analysis of the deposited data

Results flagged for a closer look

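The log2 ratio of Rbm3 had the opposite sign outside the myeloid cells. It was 0.03 in endothelial-like and 0.14 in choroid plexus or ependymal-like cells against -0.34 in microglia-like cells. With 1 library per group, the difference was not tested, and both positive values have intervals that include 0. With the stricter cell filter the endothelial value was -0.11. The share of microglial RNA in endothelial-like cells, 17.1% awake and 43.3% anesthesia, moved with the libraries, and its part in the result was not tested beyond the subtraction given with the endothelial values.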

How the results depend on the processing

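In microglia-like cells the signs of the Cirbp and Rbm3 ratios were the same under each alternative run. Cirbp moved beyond its counting interval to 1.74 once a trend on GC content and transcript length was taken out and to 1.67 in cells with Tnf. Rbm3 went to -0.45 without that trend, -0.28 within clusters, -0.30 without cells over 10000 UMIs, -0.30 when scaled without mitochondrial, ribosomal, hemoglobin and abundant nuclear RNA, and -0.30 and -0.24 in cells with and without Tnf. The Tnf values come from cells thinned to 2000 UMIs, so they differ from the main run in depth and cell weights as well as in the split. The Tnf split and the shared barcodes were chosen after seeing the data. In macrophage-like cells Cirbp was at 0.81 without cells over 10000 UMIs and 0.24 corrected for microglial RNA. Rbm3 was at -0.097 with that correction and -0.63 when centred on the median gene. The corrected macrophage values rest on a small remainder and have no interval. Thinned to 1000 UMIs, the shares of awake and anesthesia cells were 6.56% and 18.5% for Cirbp and 33.4% and 27.4% for Rbm3. At 4000 UMIs the shares were 24.0% and 54.8% for Cirbp and 77.7% and 70.8% for Rbm3, and without thinning 33.9% and 66.3%, and 86.0% and 80.1%. The anesthesia r of the 2 genes was 0.037 at 4000 UMIs and 0.0075 without cells over 10000 UMIs. Counts over all lists together were 17 higher and 9 lower, where 13.3% of all measured genes were higher and 11.9% lower. They stayed within 1.5 times under the alternatives run. Shares of all genes under those alternatives are not given, so no such count is read against a background. Of single lists, the clock had 7 of 14 members higher among genes of at least 1000 UMIs, where fewer genes count. With at least 1 UMI in each library, where more count, it had 2 of 24 lower, against 0 of 20. Within clusters 1 of 29 RNA recognition motif relatives was higher. There 2 of 9 CIRBP modifiers and receptors were lower, and 0 of 3 RBM3 partners were higher. For the other moves the cause was not tested. No paired analysis was possible because each group has 1 library.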
